A study of Mus musculus with 2 samples.

Results

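The genes described here are 32 genes of the dividing cell, 18 that act in mitosis and 14 that act in DNA replication. They were given as a list of symbols by their known roles, with earlier results of these data known, and all 32 are among the 18323 gene rows that the count tables of both stages hold. Cells of wild-type C57Bl/6 mouse embryos at embryonic days E9.5 and E11.5 came from the aorta-gonad-mesonephros region (AGM), in which blood stem cells first appear in the embryo proper, and from the yolk sac. Each tissue was divided by flow cytometry into cells with and without VE-cadherin, the junction protein of endothelium, after cells taking up the dead-cell dye 7AAD were left out. The 4 sorted pools of a stage were dispensed as single cells into nanowells of 1 ICELL8 chip, beside negative control wells and positive control wells that received E14FF embryonic stem cell RNA. The stage and the chip are therefore the same split of the samples and cannot be told apart, and the number of embryos behind each pool is not given in the sources used here.

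A cell that divides first copies its DNA and then segregates the copies. The MCM proteins form the helicase that opens DNA at replication origins, and their genes, like those for making deoxynucleotides, are transcribed from late G1 into S phase under the E2F factors. Cyclin B with Cdk1, the Aurora and Polo kinases and the spindle and kinetochore proteins act later, and their messages build up in G2 and mitosis through promoters with CCAAT boxes and a CHR element (cell cycle genes homology region). The early embryo divides fast, and primitive red cells of the yolk sac still divide while they circulate.

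These promoter elements were searched in the RefSeq promoters of build GRCm38.p6, each 250 bases before to 50 bases after a gene's start, which held 28 of the 32 members. Aurkb, Gins2, Mcm4 and Tpx2 had no entry. The letters TTTGAA or TTCGAA (CHR), on either strand, stood in the promoters of 12 of 16 mitosis members (75.0%) and 2 of 12 replication members (16.7%), and in 19.2% of all 32851 promoters. The letters TTTCCCGC, TTTCGCGC, TTTGCCGC or TTTGGCGC (E2F), again on either strand, stood in 1 of 16 mitosis members (6.25%) and 5 of 12 replication members (41.7%), against 2.27% of all promoters. CCAAT on either strand was found in 14 of 16 (87.5%) and 9 of 12 (75.0%), against 37.4% of all. A match is a description of letters, not a bound site.

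The 250 bases before the start of 4 mitosis members and 2 replication members are printed because they show the contrast between the lists. Capitals mark every match to the CHR, CCAAT and E2F letters, and adjoining capitals are matches that touch or overlap. All 6 sequences run 5′ to 3′ on the gene's strand. The windows are chr10:69352913-69353162 (minus strand) for Cdk1, chr11:99024190-99024439 (minus) for Top2a, chr2:164769679-164769928 (plus) for Ube2c, chr4:118437344-118437593 (minus) for Cdc20, chr8:75109259-75109508 (plus) for Mcm5 and chr1:128359706-128359955 (minus) for Mcm6.
Cdk1: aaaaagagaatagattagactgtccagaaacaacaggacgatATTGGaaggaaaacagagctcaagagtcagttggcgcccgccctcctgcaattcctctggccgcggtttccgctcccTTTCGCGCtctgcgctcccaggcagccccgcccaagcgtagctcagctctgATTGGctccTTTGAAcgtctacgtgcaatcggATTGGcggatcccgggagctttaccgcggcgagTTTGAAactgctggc
Top2a: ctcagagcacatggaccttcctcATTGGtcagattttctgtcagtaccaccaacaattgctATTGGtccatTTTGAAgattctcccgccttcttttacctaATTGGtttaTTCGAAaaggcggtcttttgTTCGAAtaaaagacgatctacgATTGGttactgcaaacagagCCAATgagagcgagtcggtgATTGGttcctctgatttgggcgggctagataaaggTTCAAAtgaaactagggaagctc
Ube2c: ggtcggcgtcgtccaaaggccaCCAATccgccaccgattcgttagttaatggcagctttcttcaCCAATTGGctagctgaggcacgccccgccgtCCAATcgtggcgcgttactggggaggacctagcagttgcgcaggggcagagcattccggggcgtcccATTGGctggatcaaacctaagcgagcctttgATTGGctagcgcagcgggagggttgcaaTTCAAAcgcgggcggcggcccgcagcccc
Cdc20: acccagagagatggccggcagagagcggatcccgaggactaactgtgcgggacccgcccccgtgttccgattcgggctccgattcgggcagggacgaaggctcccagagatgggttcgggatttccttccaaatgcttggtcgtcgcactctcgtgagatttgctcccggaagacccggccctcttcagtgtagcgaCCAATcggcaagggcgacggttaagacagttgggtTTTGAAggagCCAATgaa
Mcm5: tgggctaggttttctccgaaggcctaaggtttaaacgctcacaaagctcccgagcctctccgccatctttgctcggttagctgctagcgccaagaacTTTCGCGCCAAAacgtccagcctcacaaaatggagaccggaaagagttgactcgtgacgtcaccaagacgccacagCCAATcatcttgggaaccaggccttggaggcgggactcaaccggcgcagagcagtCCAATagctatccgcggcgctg
Mcm6: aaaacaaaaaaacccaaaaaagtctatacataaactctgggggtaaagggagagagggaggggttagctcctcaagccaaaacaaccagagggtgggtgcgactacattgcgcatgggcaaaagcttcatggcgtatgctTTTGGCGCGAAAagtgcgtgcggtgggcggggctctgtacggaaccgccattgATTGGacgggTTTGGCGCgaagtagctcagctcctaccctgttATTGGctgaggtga

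The 4 mitosis promoters hold CHR letters beside CCAAT letters: Top2a has 4 CHR matches and 6 CCAAT matches, Cdk1 2 and 3, Ube2c 1 and 6, and Cdc20 1 and 2. Cdk1 is the mitosis member that also has E2F letters. In Mcm5 and Mcm6 an E2F match on one strand overlaps one on the other. For these genes the bases just after the RefSeq start were not found in their GENCODE protein-coding transcripts, while those of the 4 mitosis members were. The remaining mitosis members with CHR letters are Mki67, Ccnb2, Cenpf, Aurka, Plk1, Bub1, Kif11 and Hmmr, and the 2 replication members with them are Mcm2 and Mcm7. Ccnb1, Cenpe, Birc5 and Nusap1 are the mitosis members searched that lack CHR letters. Mcm3, Mcm7 and Cdc6 complete the replication members with E2F letters.

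Wells with counts for at least 500 genes were used, 299 to 354 per pool at E9.5, against 287 to 379 at E11.5. Pools held 1382810 to 3862642 counts at E9.5, against 850258 to 1630507 at E11.5, with medians of 1504 to 2240 and 749 to 1295 genes per well. In 1 pool the filter removed many wells: 287 of 372 E11.5 AGM positive wells passed. The 46 positive control wells per chip held 310576 and 147829 counts. The counts of 12 endothelial markers summed to 1224 to 2214 CPM, counts scaled to the same total in each pool, in the VE-cadherin positive pools and 52.0 to 84.0 in the negative ones. Stem cell markers stood at 3793 and 3721 CPM in the positive control wells and at 2.85 to 10.6 in the pools. Haemoglobin took a median of 3.45% to 38.1% of a well's counts. Because each pool is 1 sample, no test was possible, and every interval given is a 95% one for counting error alone. The intervals are exact, except that those of differences from the control wells use a normal approximation. The tables may count copies of 1 molecule more than once, which would make the intervals too narrow. Where 4 values follow each other without labels, they stand for positive and then negative cells of the AGM, followed by positive and negative cells of the yolk sac. The well barcodes are reused: 473 occur on both chips.

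The replication members were lower at E11.5 than at E9.5 in each pool kind, and by more than the mitosis members. Together the 14 replication members took 1536 CPM in the E9.5 AGM positive pool, 1962 in AGM negative, 1494 in yolk sac positive and 1166 in yolk sac negative cells. At E11.5 the same pools had 673, 1178, 536 and 488 CPM. The 18 mitosis members took 3107, 3224, 3133 and 2514 CPM at E9.5, against 1827, 2449, 1599 and 1557 CPM at E11.5. No E11.5 pool reached the level of its E9.5 counterpart for either list, and AGM negative was the highest pool for both lists at both stages on these totals. For mitosis at E9.5 its interval (3139 to 3311) overlapped those of AGM positive (3028 to 3187) and yolk sac positive (3041 to 3228). The order of pools depends on haemoglobin. On totals without haemoglobin and mitochondrial genes the mitosis members took 4168, 3523, 4001 and 4189 CPM at E9.5, with AGM negative lowest, and 2708, 2716, 2793 and 2502 CPM at E11.5. The replication members then took 2060, 2144, 1908 and 1942 CPM at E9.5 and 997, 1306, 937 and 783 CPM at E11.5, with AGM negative still highest, though at E9.5 its interval overlapped that of AGM positive. In bulk sums like these, fewer dividing cells and less of each message per cell cannot be told apart.

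**Figure D1:**
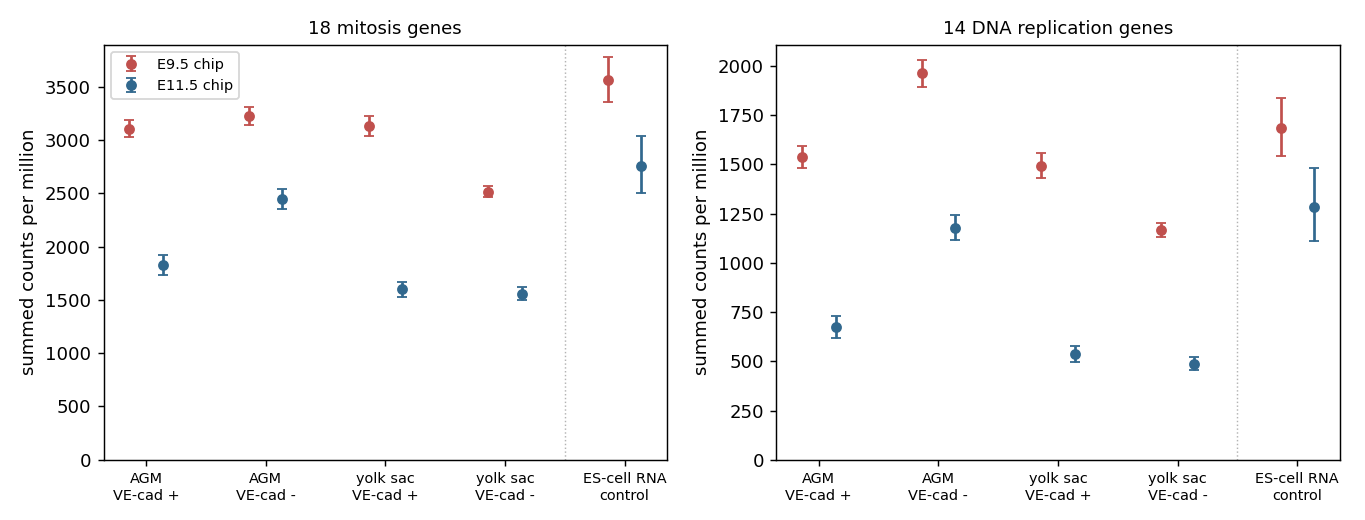
Summed CPM of the 18 mitosis genes (left) and the 14 DNA replication genes (right) in each sorted pool and in the stem cell RNA control wells, by chip. Points are pool values with 95% Poisson intervals for counting error, and the E11.5 points lie below the E9.5 points in each pool kind and in the control wells.

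For the replication members the log2 ratio of E11.5 over E9.5 was -1.19 (-1.32 to -1.06) in AGM positive, -0.74 (-0.83 to -0.64) in AGM negative, -1.48 (-1.61 to -1.35) in yolk sac positive and -1.26 (-1.37 to -1.15) in yolk sac negative cells. For the mitosis members it was -0.77 (-0.85 to -0.69), -0.40 (-0.46 to -0.33), -0.97 (-1.05 to -0.89) and -0.69 (-0.76 to -0.63). The same stem cell RNA also gave lower values on the E11.5 chip. Its mitosis members had 3564 CPM on the E9.5 chip and 2760 on the E11.5 chip, a log2 ratio of -0.37 (-0.54 to -0.20), and its replication members had 1684 and 1285 CPM, a ratio of -0.39 (-0.64 to -0.15).

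Set against the control wells, the replication ratio was lower by 0.80 (0.53 to 1.07) in AGM positive, 0.35 (0.09 to 0.60) in AGM negative, 1.09 (0.82 to 1.36) in yolk sac positive and 0.87 (0.60 to 1.13) in yolk sac negative cells on the log2 scale. The mitosis ratio was lower than that of the controls by 0.40 (0.21 to 0.58), 0.03 (-0.15 to 0.21), 0.60 (0.42 to 0.78) and 0.32 (0.15 to 0.50). In AGM negative cells the mitosis sum thus differed between chips by about as much as the control RNA did. The median over all genes tested was -0.41, 0.04, -0.77 and 0.23 in the 4 pool kinds and -0.39 in the control wells. Both lists lay below that median in each pool kind, replication by 0.71 to 1.49 and mitosis by 0.20 to 0.92. The size depends on the total used. Over the 4 pool kinds the median ratio was -1.22 for replication and -0.73 for mitosis, and -0.75 and -0.35 on totals without haemoglobin, mitochondrial genes and Gm42418, a row that holds ribosomal RNA reads and took 9.44% to 14.3% of a pool's counts at E9.5, against 16.0% to 19.3% at E11.5. On those totals the control ratios were -0.33 and -0.31, so the median mitosis ratio was then close to that of the control RNA, with -0.37, -0.34, -0.20 and -0.57 in the 4 pool kinds. With wells of at least 1000 genes the medians were -0.86 and -0.45.

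The balance between the lists needs no total for scaling. Mitosis members gave 66.9% (65.9 to 67.9) of the counts of all 32 members in E9.5 AGM positive, 62.2% (61.2 to 63.2) in AGM negative, 67.7% (66.6 to 68.9) in yolk sac positive and 68.3% (67.6 to 69.1) in yolk sac negative cells. At E11.5 the shares were 73.1% (71.1 to 75.0), 67.5% (66.0 to 69.0), 74.9% (73.2 to 76.5) and 76.2% (74.7 to 77.6). The stem cell RNA gave 67.9% (65.6 to 70.2) and 68.2% (64.3 to 71.9) on the chips, a difference of 0.31 percentage points. The mitosis share was higher at E11.5 by 5.35 to 7.83 percentage points over the 4 pool kinds, with no overlap of the intervals within a kind. AGM negative had the lowest share at both stages. With Mki67 and Rrm1, the member of highest count in each list, left out, the difference was 6.01 to 10.9 points and the control difference 0.77. With counts capped at 1 per gene and well, a setting in which depth enters, the control share was also higher on the E11.5 chip, by 5.16 points, beside 4.93 to 12.0 in the pools.

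**Figure D2:**
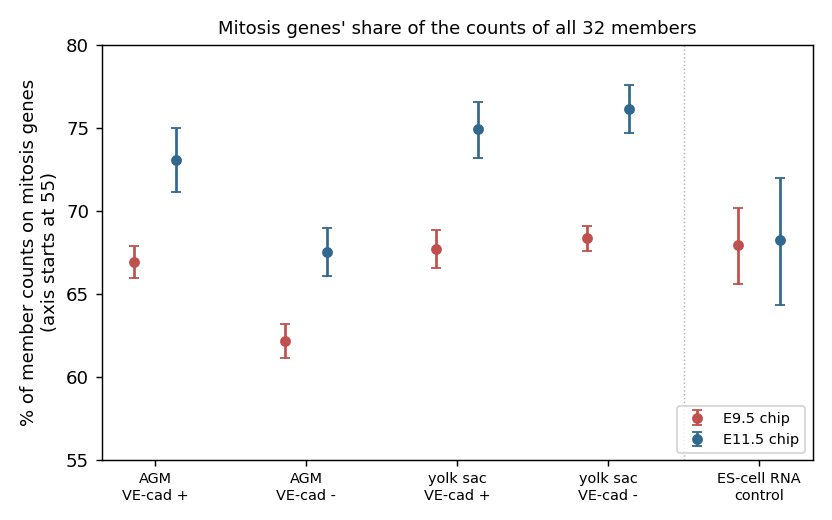
Share of all member counts that fell on the 18 mitosis genes, in percent, by pool and chip, with 95% binomial intervals for counting error. The axis starts at 55%. The E11.5 pools lie 5.35 to 7.83 points above their E9.5 counterparts, and the control wells are at 67.9% and 68.2%.

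Member by member, all 14 replication genes had a stage ratio below 0 in all 4 pool kinds, 11 of them with intervals below 0 throughout, and so had 16 of 18 mitosis genes, 7 of them with such intervals. The exceptions were Nusap1 in AGM negative and Cdk1 in yolk sac negative cells. Set against each member's own control ratio, 10 of 14 replication and 9 of 18 mitosis members were lower in all 4 pool kinds. The interval of that difference lay below 0 in all 4 for 0 of 14 and 1 of 18. By pool kind it did so for 5, 2, 8 and 6 replication members and for 8, 2, 6 and 4 mitosis members. It lay above 0 for 1 mitosis member in AGM negative and 1 in yolk sac negative cells. A gene was called lower when its CPM differed 2-fold or more, provided that the pool with more held 20 counts. Of the 13 replication members with enough counts, 9 were called lower in AGM positive, 3 in AGM negative, 12 in yolk sac positive and 9 in yolk sac negative cells. Of the 18 mitosis members, 8, 1, 10 and 4 were. Among all genes tested, 25.5%, 11.6%, 38.6% and 16.1% were called lower, so the mitosis count in AGM negative cells was no higher than that background. In the control wells 0 of 15 mitosis and 1 of 11 replication members were called lower, against 22.1% of all genes. No member was called higher in any of these 5 comparisons, where 7.55%, 14.8%, 5.01% and 29.4% of all genes were in the pools and 3.62% in the control wells.

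**Figure D3:**
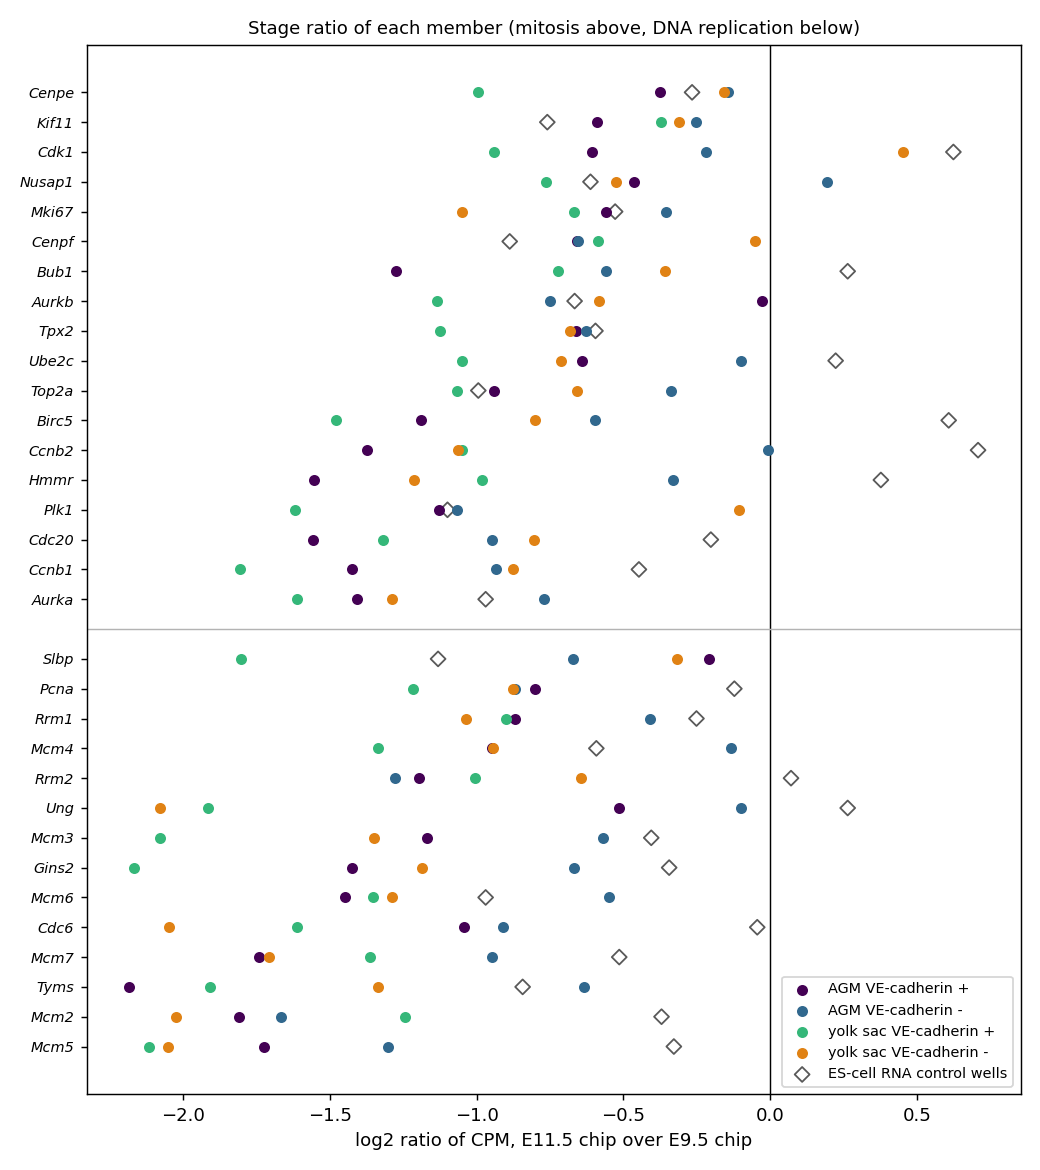
Log2 ratio of CPM, E11.5 chip over E9.5 chip, for each mitosis gene (above) and replication gene (below), ordered by the median of the 4 pool kinds. Filled points are sorted pools and open diamonds the stem cell RNA control wells. All filled points of the replication genes are below 0, while Nusap1 in AGM negative and Cdk1 in yolk sac negative cells are above it.

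Taken without the control wells, the helicase genes had the lowest stage ratio of the 7 groups of members by role in each pool kind but AGM negative. The 6 MCM genes together went from 743 to 281 CPM in AGM positive, from 961 to 575 in AGM negative, from 743 to 246 in yolk sac positive and from 578 to 202 in yolk sac negative cells. Their log2 ratios were -1.40 (-1.61 to -1.20), -0.74 (-0.88 to -0.61), -1.60 (-1.79 to -1.41) and -1.52 (-1.69 to -1.35), beside -0.52 (-0.90 to -0.15) in the control wells. Ccnb1, Ccnb2 and Cdk1 together had -0.96, -0.43, -1.20 and -0.35, but 0.20 (-0.24 to 0.64) in the control wells. Set against the control ratios, that group lay below the helicase genes in each pool kind but yolk sac negative, which was not tested. Mcm2 and Mcm5 were called lower in all 4 pool kinds, which no other member was.

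Mcm5 (GENCODE vM21, chr8:75109569-75128439, plus strand) had 101, 147, 116 and 102 CPM at E9.5, against 30.6, 59.4, 26.9 and 24.5 at E11.5. The 2 stages did not overlap, and the log2 ratios ran from -2.11 in yolk sac positive to -1.30 in AGM negative cells, with -0.33 (-1.48 to 0.72) in the control wells. Mcm2 (chr6:88883474-88898780, minus strand) had 74.1, 84.1, 75.2 and 69.9 CPM at E9.5, against 21.2, 26.5, 31.8 and 17.2 at E11.5, again without overlap. Of the 104 counts behind Mcm2 in E9.5 yolk sac positive cells, 32 (30.8%) came from 1 well, and with counts capped at 1 per gene and well its ratio there was -0.78 in place of -1.24, short of a 2-fold difference. Mcm4 was the helicase gene that differed least in AGM negative cells, with 148 CPM at E9.5, against 135 at E11.5, a ratio of -0.13 (-0.43 to 0.17). Its interval lay below 0 in each other pool kind.

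Deoxynucleotide synthesis genes were also lower. Tyms, thymidylate synthase, had 134, 149, 147 and 127 CPM in the E9.5 pools. At E11.5 it had 29.4, 96.0, 39.1 and 50.3 CPM. Its ratio in AGM positive cells, -2.18 (-2.84 to -1.59), was beside -2.17 of Gins2 in yolk sac positive cells at the lower end of all member ratios, and its control ratio was -0.84 (-1.85 to 0.06). Rrm1, the large subunit of ribonucleotide reductase, had ratios of -0.41 to -1.04. Rrm2, the small subunit, had 103, 164, 93.3 and 51.8 CPM at E9.5, against 44.7, 67.7, 46.5 and 33.1 at E11.5, with a control ratio of 0.07 (-0.72 to 0.82). Rrm2 was the replication gene called lower in AGM negative cells besides Mcm2 and Mcm5.

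Origin licensing and fork genes followed the same direction. Cdc6, which loads the helicase, had ratios from -0.91 in AGM negative to -2.05 in yolk sac negative cells, and -0.04 (-1.73 to 1.45) in the control wells, where it had 13 and 6 counts. Gins2, a subunit of the active helicase, had ratios of -0.67 to -2.17. Pcna, the sliding clamp, had ratios of -0.80 to -1.22 in the 4 pool kinds. Slbp, which binds the stem loop of histone messages, differed by less than counting error in AGM positive (-0.21, -0.71 to 0.27) and yolk sac negative cells (-0.32, -0.75 to 0.10), and 23 of its 51 counts (45.1%) in E11.5 AGM positive cells came from 1 well. Ung, uracil-DNA glycosylase, had 1 to 17 counts per pool, too few for a statement.

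The 7 mitosis members with intervals below 0 in each pool kind were Mki67, Top2a, Ccnb1, Aurka, Birc5, Tpx2 and Cdc20. Of these, only Birc5 also had the interval of its difference from the control ratio below 0 in each pool kind. For Mki67, Top2a, Aurka and Tpx2 that interval lay below 0 in no pool kind. The Tpx2 control ratio was -0.595 (-1.34 to 0.10). Ccnb1 (chr13:100778650-100786570, minus strand) had 78.8, 117, 99.8 and 86.7 CPM at E9.5, against 29.4, 61.3, 28.5 and 47.2 at E11.5. Ratios of Ccnb1 were -1.42, -0.93, -1.81 and -0.88, beside -0.45 (-1.22 to 0.27) in the control wells. Of its 67 counts in E11.5 AGM negative cells, 15 (22.4%) came from 1 well. Ccnb2 was called lower in 3 pool kinds but stood at 44.1 and 43.9 CPM in AGM negative cells, and its control wells went the other way, 0.71 (-0.41 to 1.80).

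Cdk1, the kinase that cyclin B activates, differed from its cyclins in yolk sac negative cells. It had 133, 122, 144 and 65.5 CPM at E9.5, against 87.0, 105, 75.0 and 89.5 at E11.5. The 65.5 CPM of E9.5 yolk sac negative cells was the lowest E9.5 value, so the ratio there was 0.45 (0.15 to 0.75), against -0.61, -0.22 (-0.56 to 0.12) and -0.94 (-1.31 to -0.58) in the others. In the control wells Cdk1 was also at the higher level on the E11.5 chip, 0.62 (-0.07 to 1.30), so its difference in the yolk sac pool was no larger than that in the control RNA.

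The 4 mitotic kinase genes Aurka, Aurkb, Plk1 and Bub1 together had ratios of -1.07, -0.75, -1.31 and -0.74, with -0.47 (-1.10 to 0.13) in the control wells. Aurka, the kinase of the spindle poles, had 99.9, 108, 107 and 89.8 CPM at E9.5, against 37.6, 63.1, 35.04 and 36.8 at E11.5, and its stages did not overlap. The Aurka control ratio was -0.97 (-2.21 to 0.11). Its stage ratios differed from that by -0.44, 0.20, -0.64 and -0.32, and the interval of each difference covered 0. Plk1, Polo kinase, was the one mitosis gene called lower in AGM negative cells (-1.07), and in yolk sac negative cells its ratio was -0.11 (-0.67 to 0.43). The Plk1 control ratio was -1.10 (-3.12 to 0.50), on 18 counts at E9.5 and 4 at E11.5. Its AGM negative ratio differed from that by 0.03 (-1.64 to 1.70). Aurkb, the kinase of the chromosomal passenger complex, was at 30.0 and 29.4 CPM in AGM positive cells. Its partner Birc5 (survivin) had ratios of -1.19, -0.60, -1.48 and -0.80, but 0.61 (-0.04 to 1.25) in the control wells.

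Spindle genes had summed ratios of -0.76, -0.30, -0.85 and -0.72 for Kif11, Tpx2, Hmmr and Nusap1 together, and -0.31 (-0.69 to 0.06) in the control wells. Hmmr, which acts at spindle poles, had the lowest of them, -1.55 in AGM positive cells. Nusap1, a microtubule binding protein, had 115, 102, 124 and 93.5 CPM at E9.5, against 83.5, 117, 73.3 and 65.0 at E11.5, with a ratio of 0.19 (-0.15 to 0.53) in AGM negative cells. The kinetochore genes Cenpe and Cenpf together had ratios of -0.48, -0.37, -0.83 and -0.11, no lower than the control ratio of -0.66 (-1.17 to -0.17) except in yolk sac positive cells, where the intervals overlapped. Cdc20 and Ube2c, which serve the anaphase promoting complex, had -0.90, -0.32, -1.13 and -0.74, and 0.07 (-0.54 to 0.66) in the control wells. Top2a, the topoisomerase that untangles sister chromosomes, had ratios of -0.94, -0.34, -1.07 and -0.66, beside a control ratio of -0.99 (-1.39 to -0.61). In AGM negative cells its ratio lay 0.66 (0.25 to 1.06) above that of the control wells, and in the other 3 pool kinds the interval of that difference covered 0.

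Mki67, the chromosome surface protein used as the marker of dividing cells, was lower at E11.5 in each pool kind like most mitosis genes, but its order among the pools of a stage differed from theirs. It had 702, 497, 637 and 766 CPM at E9.5, against 476, 389, 401 and 370 at E11.5. In the control wells the log2 ratio of Mki67 was -0.53 (-1.14 to 0.05). Its stage ratios differed from that by -0.03, 0.17, -0.14 and -0.52, and the interval of each difference covered 0. The E9.5 yolk sac negative pool was the highest of the E9.5 pools for Mki67, also on totals without haemoglobin and mitochondrial genes (941, 543, 814 and 1276 CPM). For the mitosis sum that pool was lowest on all counts and highest on those totals, where its interval overlapped those of AGM positive and yolk sac positive. The sum includes Mki67 itself, which gave 2958 of its 9712 counts in that pool. As a share of all mitosis counts, Mki67 took 22.6% (21.5 to 23.7), 15.4% (14.5 to 16.4), 20.3% (19.1 to 21.6) and 30.5% (29.5 to 31.4) at E9.5, against 26.1% (23.9 to 28.3), 15.9% (14.5 to 17.3), 25.1% (23.2 to 27.1) and 23.8% (22.1 to 25.5) at E11.5. AGM negative cells had the lowest share at both stages, and the control wells had 9.03% (7.41 to 10.9) and 8.09% (5.63 to 11.2). These shares use no total outside the list.

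**Figure D4:**
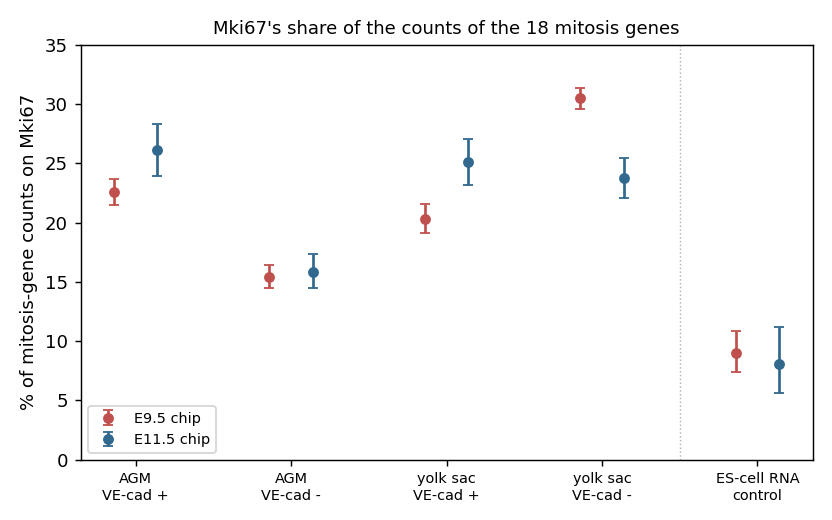
Share of the counts of the 18 mitosis genes that fell on Mki67, in percent, by pool and chip, with 95% binomial intervals for counting error. The E9.5 yolk sac negative pool is highest at 30.5%, the AGM negative pools are at 15.4% and 15.9%, and the control wells are at 9.03% and 8.09%.

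Some values may hold reads of other transcripts, since neither the counting tool nor its use of strand is given in the sources used here. Exons of Ube2c overlap Tnnc2, those of Cdc20 overlap Elovl1, those of Nusap1 overlap Oip5 and those of Mcm7 overlap Cops6 and Ap4m1, each on the other strand. Pseudogene copies of at least 200 bases and 90% identity were found for 16 members. Of 29 copies 10 had a row in a table, led by Pcna-ps2 with 247 counts over the 8 pools beside 1467 of Pcna and by Gm15697 with 88 beside 983 of Kif11. The other 8 copies had 2 to 21 counts.

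Between the gates the direction of both lists changed with tissue and stage, and no member stood on the same side of 0 in all 4 pairs of pools. The log2 ratio of positive over negative cells was -0.05, 0.32, -0.42 and 0.04 for mitosis and -0.35, 0.36, -0.81 and 0.14 for replication, with AGM before yolk sac of E9.5 and then of E11.5. The median of all genes tested moved with them, at -0.39, 0.76, -0.86 and -0.18. In E9.5 yolk sac 2 of 18 mitosis members, Cdk1 and Plk1, were called higher, against 38.8% of all genes. In E11.5 AGM 3 of 18 mitosis and 5 of 13 replication members were called lower, against 42.4%. These pairs had no member called the other way, against 2.67% lower and 6.45% higher among all genes. In E9.5 AGM (7.61% higher, 21.2% lower) and E11.5 yolk sac (9.2% higher, 14.9% lower) no member was called. With totals that leave out haemoglobin and mitochondrial genes, the mitosis ratios were 0.24, -0.07, -0.01 and 0.16, so both E9.5 pairs changed sides of 0 and E11.5 AGM came near it. The replication ratios were -0.06, -0.03, -0.39 and 0.26 on those totals. Haemoglobin genes took 3.47% to 37.0% of a pool's counts.

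Between the tissues, the replication members differed most in the E11.5 negative cells. They had 1178 CPM in AGM and 488 in yolk sac, a log2 ratio of 1.27 (1.14 to 1.40), beside a median over all genes of 0.90. There 9 of 13 replication and 3 of 18 mitosis members were called higher in AGM, against 45.4% of all genes. The mitosis ratio in that pair was 0.65 (0.57 to 0.73), and 0.12, -0.02 and -0.22 under the next 3 scalings named. The replication ratio was 0.74 with totals without haemoglobin and mitochondrial genes, 0.59 when Gm42418 was also left out, and 0.40 with TMM scaling. In E9.5 negative cells 3 of 18 mitosis and 3 of 13 replication members were called higher in AGM, against 54.8% of all genes, and with TMM scaling the sums there stood at -0.78 and -0.38. Among positive cells the replication ratio of AGM over yolk sac was 0.04 (-0.04 to 0.12) at E9.5, against 0.33 (0.16 to 0.49) at E11.5, with 0 members called at E9.5 (3.53% of genes higher, 8.53% lower). At E11.5 Aurkb (1 of 18) and Slbp (1 of 12, with the 1-well count given above) were called higher, against 9.92%. No member was called lower in AGM in the other 3 pairs, against 4.59%, 4.9% and 5.87% of all genes in E9.5 negative, E11.5 positive and E11.5 negative cells. Each pool enters 3 of these comparisons, so they are not independent.

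Well by well, the summed counts of a list in each well were compared after thinning every well at random to 1000 counts, which left out 1 E11.5 AGM positive and 5 E11.5 AGM negative wells. At least 2 mitosis counts were found in 76.9% (71.7 to 81.6), 79.9% (75.4 to 84.0), 74.8% (69.7 to 79.4) and 71.2% (65.7 to 76.2) of E9.5 wells, and in 40.6% (34.8 to 46.5), 53.2% (47.6 to 58.6), 38.7% (33.6 to 43.9) and 39.8% (34.9 to 45.0) of E11.5 wells. At least 2 replication counts were found in 42.8%, 55.4%, 36.0% and 36.1% of E9.5 wells and in 11.9%, 33.3%, 8.96% and 9.24% of E11.5 wells. The control wells had 89.1% and 76.1% for mitosis and 45.7% and 34.8% for replication. AGM negative cells had the highest share of the E11.5 pools for both lists. The thinned counts include haemoglobin, a median 3.45% of a well's counts in that pool and 25.6% to 34.4% in the other E11.5 pools, and thinning without it was not run.

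**Figure D5:**
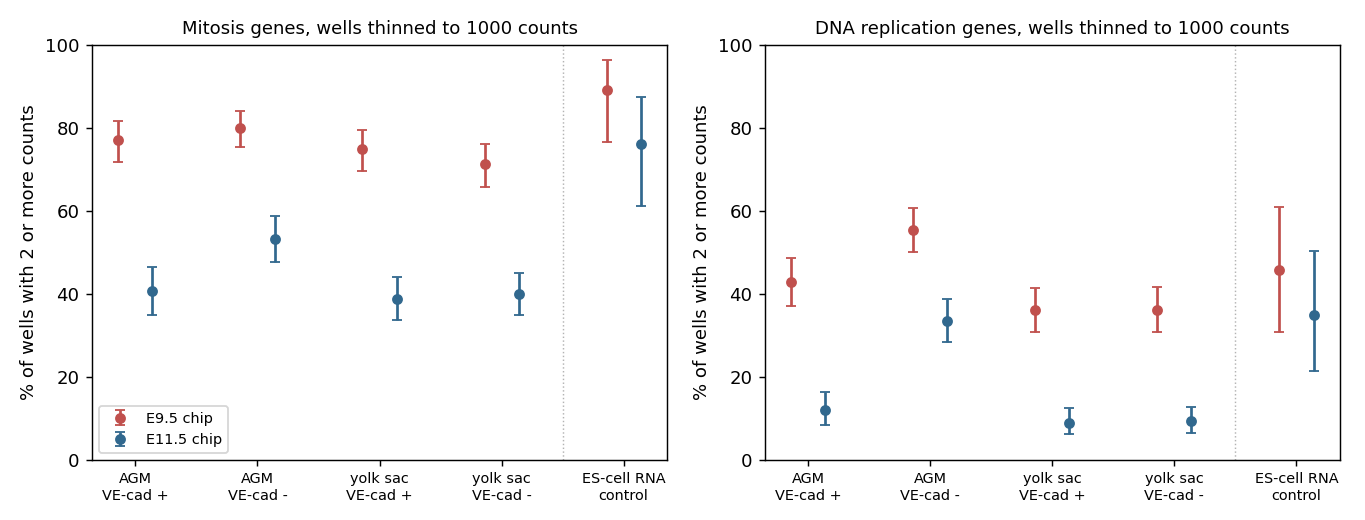
Percent of wells with at least 2 counts of mitosis genes (left) or DNA replication genes (right) after thinning each well to 1000 counts, by pool and chip, with 95% binomial intervals. For mitosis the E9.5 pools lie between 71.2% and 79.9% and the E11.5 pools between 38.7% and 53.2%. For replication the ranges are 36.0% to 55.4% and 8.96% to 33.3%.

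A count in a well is not proof that its cell made the message. Negative control wells held mitosis counts in 45.8% (31.4 to 60.8) of 48 E9.5 wells and 46.8% (32.1 to 61.9) of 47 E11.5 wells, at medians of only 124.5 and 329 counts per well. In CPM their mitosis members stood at 4960 (3392 to 7002) on the E9.5 chip, above each E9.5 pool, and at 1909 (1314 to 2681) on the E11.5 chip, within the range of the pools. Their replication members stood at 2170 (1186 to 3641) and 1099 (662 to 1716). These levels rest on 32, 33, 14 and 19 counts, and the part of such counts in the well shares was not tested. Without thinning, 77.7% to 100% of wells in a pool had 2 mitosis counts or more.

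At E11.5 the mitosis counts were spread more unevenly over wells. After thinning to 1000 counts the variance of the mitosis score over its mean was 1.15, 1.33, 1.31 and 1.10 at E9.5, against 2.36, 3.06, 1.51 and 1.56 at E11.5, beside 0.88 and 1.16 in the control wells, in which every well has the same RNA. The highest score was 21 of 1000 counts, in an E11.5 AGM negative well, against 12 in any E9.5 well and 7 in a control well. The tenth of wells with most mitosis counts held 22.2% to 23.3% of them at E9.5, 32.2% to 37.1% at E11.5 and 19.4% and 24.4% in the control wells. That share depends on the mean score as well, which was 2.6 to 3.3 at E9.5, against 1.4 to 2.5 at E11.5. For the E9.5 replication scores, with means of 1.2 to 1.9, it was 25.3% to 30.0%. Scores of 6 or more were reached by 37 of 333 E11.5 AGM negative wells (11.1%) and 52 of 354 E9.5 ones (14.7%), although the share with 2 or more was 53.2% against 79.9%. For replication the variance over the mean was 0.92 to 1.22 at E9.5, against 1.09 to 1.55 at E11.5, beside 0.78 and 0.93 in the control wells.

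The share of wells with a mitosis count was compared between wells with and without a replication count. In the E11.5 AGM positive pool, of 123 thinned wells with a replication count, 76.4% (67.9 to 83.6) had a mitosis count, and of 163 wells without one, 63.8% (55.9 to 71.2) did, with overlapping intervals. In the other pools these shares were 68.2% to 94.9% and 69.3% to 92.9%. At E9.5 nearly every well held a mitosis count, which leaves little room for a difference.

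Both lists were also lower at E11.5 in wells with endothelial markers. Wells holding 3 or more of these 12 genes, a cut chosen after the data were seen, numbered 283, 283, 127 and 134 (AGM before yolk sac of E9.5, then of E11.5). On totals without haemoglobin and mitochondrial genes they had 2078, 1919, 1023 and 871 CPM of replication members and 4165, 3983, 2481 and 2974 CPM of mitosis members. The stem cell RNA control wells were also lower on the E11.5 chip on these totals. They went from 1850 to 1452 CPM for replication and from 3915 to 3118 CPM for mitosis. Between 26 and 48 wells of each pool had exactly 3 markers. At E11.5 the 41 wells with at least 3 macrophage markers in each positive pool had more replication counts than the rest of the pool. They stood at 1487 (1285 to 1712) against 854 (770 to 945) CPM in AGM and at 1239 (1046 to 1457) against 876 (802 to 955) in yolk sac. Their mitosis levels, 2812 (2531 to 3116) against 2677 (2527 to 2834) and 2724 (2434 to 3039) against 2807 (2673 to 2946), overlapped. The macrophage-marker wells were deeper, with medians of 3503 and 3602 counts against 2439 and 2961. Of these wells 12 in AGM and 21 in yolk sac had exactly 3 of the markers. In the rest of these pools 37 and 48 wells had exactly 2.

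Wells above their pool's median haemoglobin share were compared with the wells below it on the same totals. The ratios of the upper over the lower wells lay between -0.34 and 0.28 on the log2 scale. The E11.5 AGM positive pool gave both extremes, with mitosis 0.28 (0.13 to 0.43) higher and replication at -0.34 (-0.61 to -0.07) in the haemoglobin-rich wells. The 2 sets differed in depth, with medians of 2129 and 3068.5 counts per well in that pool, and the part of depth in this was not tested.

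Other genes of the same processes were listed beside the members, and more of the replication than of the mitosis genes among them were called lower at E11.5. Of 43 replication genes outside the members found in both tables, those called lower were 21 of 43 tested in AGM positive, 6 of 43 in AGM negative, 35 of 42 in yolk sac positive and 19 of 43 in yolk sac negative cells. Among all genes 25.5%, 11.6%, 38.6% and 16.1% were, so the count in AGM negative cells was close to that background. The medians were -0.99, -0.61, -1.43 and -0.82, against -0.41, 0.04, -0.77 and 0.23 over all genes. In the control wells 3 of 23 were called lower, against 22.1% of all genes, with a median of -0.40. Hells, a chromatin remodeller of S phase, had ratios of -0.88, -0.83, -1.80 and -0.82, and Lig1, the ligase that seals replicated strands, -0.89, -0.59, -1.23 and -1.07. Dnmt1, the maintenance DNA methyltransferase, was at 230.0 and 229 CPM in AGM negative cells.

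Of 44 further mitosis genes, 14 of 43, 2 of 42, 17 of 41 and 6 of 42 were called lower, with medians of -0.69, -0.38, -0.92 and -0.33. Against the same background (25.5%, 11.6%, 38.6% and 16.1%) the counts in AGM negative and yolk sac negative cells were below it, and the others were not far above it. In the control wells 6 of 25 were, near the 22.1% of all genes, with a median of -0.36. Hmgb2, a chromatin protein abundant in dividing cells, was called lower in all 4 pool kinds and went from 3248 to 1402 CPM in AGM positive, from 6230 to 2133 in AGM negative, from 4125 to 1011 in yolk sac positive and from 2791 to 1224 in yolk sac negative cells. Condensin gene Smc2 stood at 169 and 164 CPM in AGM negative cells. No gene of either list was called higher in a pool kind.

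The genes that control entry into the cycle differed by pool kind. Of 12 genes of G1 (cyclins, their kinases, E2F factors and Cdc25a), 6 of 11, 0 of 12, 5 of 11 and 2 of 12 were called lower, against 25.5%, 11.6%, 38.6% and 16.1% of all genes, and 1, 0, 0 and 2 were called higher. The counts in yolk sac positive and yolk sac negative cells were near background. Cdk4, the kinase of the D cyclins, went from 163 to 35.04 CPM in yolk sac positive cells, while Ccnd1, a D cyclin, was at 5.18 and 13.5 CPM in yolk sac negative cells, higher at E11.5 on 20 and 22 counts. Of the inhibitors of cycle kinases and the Rb family, 1 of 7, 2 of 7, 0 of 7 and 3 of 8 were called higher, against 7.55%, 14.8%, 5.01% and 29.4% of all genes. Cdkn1c (p57), an imprinted inhibitor, went from 55.9 to 241 CPM in AGM negative and from 6.21 to 87.7 in yolk sac negative cells, log2 ratios of 2.11 (1.76 to 2.46) and 3.82 (3.19 to 4.51). It was at 26.3 and 25.9 CPM in AGM positive cells. Btg2, an antiproliferative gene, was higher in AGM negative cells by 1.93 (1.41 to 2.47) and in yolk sac negative cells by 1.17 (0.77 to 1.56). Mesenchymal markers were also higher at E11.5 in these 2 pools, from 417 to 1796 CPM in AGM negative and from 771 to 7599 in yolk sac negative cells, and their part in the Cdkn1c and Btg2 values was not tested. Control wells at E11.5 held 399 CPM of the same markers, against 9.66 at E9.5.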

How the data were processed

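The 2 tables hold read counts per gene and well for 1 ICELL8 chip each, as deposited by the authors, with no normalization (E9.5: 20575 genes by 1378 wells, E11.5: 20823 by 1576). The submitters' processing notes name FastQC, cutadapt, STAR and mm10/GRCm38. The counting tool, annotation, use of strand and use of molecular identifiers are not given in the sources used here. Pools and control wells were read from the state label deposited for each well. The members and all other lists were chosen with earlier results of these data known.

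Wells with counts for at least 500 genes were summed by pool, and CPM, counts scaled to 1000000 per pool, were computed over all gene rows of the pool. No doublet caller was run, because wells were chosen by imaging for single cells. Each pool is 1 sample, so differences carry no test and no p-value. Sums carry exact Poisson intervals, shares Clopper-Pearson intervals and log2 ratios exact conditional binomial intervals, all at 95%. Differences between a stage ratio and the control ratio carry normal-approximation 95% intervals computed from the counts. Genes with 20 counts or more in either pool were tested and called at a 2-fold difference. A pool without a count of a gene was given the floor of 3. The 13 comparisons were 4 each of gate, tissue and stage and 1 of the positive control wells. Wells were thinned without replacement to 1000 counts with a fixed seed. The text names all members and, of each other list, genes among the 5 of highest count. The calculation was tested on simulated data over 18323 genes. True 2-fold changes gave median log2 ratios of 0.99 to 1.03 over the 13 comparisons, and intervals covered the truth in 94.0% to 99.0% of genes. For true 4-fold changes these were 1.96 to 2.02 and 92.0% to 98.0%. The simulated counts followed the Poisson law that the intervals assume. The coverage therefore does not speak to uneven wells or to molecules counted more than once.

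Alternatives were other well filters, other totals, TMM factors (edgeR 4.0.16, R 4.3.3), counts capped at 1 per gene and well, and leaving out the member of highest count. Totals without Gm42418, list levels on totals without haemoglobin, the settings of the mitosis share and the wells with 3 marker genes were added after the data were seen. Other tools were Python 3.11.15, numpy 2.4.6, pandas 2.3.3 and scipy 1.17.1.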

Additional observations from a re-analysis of the deposited data

Results flagged for a closer look

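Several members stood on opposite sides of 0 in a pair of comparisons of the same kind, with both counting intervals clear of 0 and the same signs under each of the 4 scalings run. None of these differences was tested, since each pool is 1 sample.

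Mki67 was higher in VE-cadherin positive than negative cells in E9.5 AGM (log2 ratio 0.50) and E11.5 AGM (0.29), and lower in E9.5 yolk sac (-0.27). Between tissues at E9.5 it was higher in AGM among positive cells (0.14) and lower in AGM among negative cells (-0.62). Both contrasts contain the E9.5 yolk sac negative pool, where Mki67 had its highest level. Ccnb2 was higher in positive cells of E9.5 AGM (0.47) and lower in those of E11.5 AGM (-0.90). Rrm2 was higher in positive cells of E9.5 yolk sac (0.85) and lower in those of E9.5 AGM (-0.68). Plk1 was higher in AGM than yolk sac among E9.5 negative cells (1.17) and lower among E9.5 positive cells (-0.49). Ube2c was higher in AGM among E11.5 negative cells (1.14) and lower among E9.5 positive cells (-0.40). Cdk1 was higher at E11.5 in yolk sac negative cells (0.45) and lower in AGM positive (-0.61) and yolk sac positive cells (-0.94). Its control wells stood at 0.62 between the chips. The size of these ratios depended on the scaling. Under the scaling that made each smallest, Rrm2 stood at 0.017 in E9.5 yolk sac and -0.23 in E9.5 AGM. Plk1 then stood at 0.036 among E9.5 negative and -0.35 among E9.5 positive cells, and Ube2c at 0.26 and -0.26 in its pairs. Ccnb2 stood at -0.27 in E11.5 AGM, and Cdk1 at 0.099, -0.21 and -0.17 in the order given.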

How the results depend on the processing

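No paired analysis was possible because each group is 1 pool, and for the same reason no replicate could be left out. All values are median log2 ratios over the 4 pairs of a kind unless stated. For the stage, mitosis (-0.73 as reported) stood at -0.45 with wells of at least 1000 genes, -0.57 on totals without haemoglobin and mitochondrial genes, -0.58 with TMM scaling, -0.37 with counts capped at 1 per gene and well and -0.35 without Gm42418 as well. Replication (-1.22) stood at -0.86, -1.04, -1.04, -0.76 and -0.75 under the same settings. Control wells moved from -0.37 to -0.18 with TMM scaling and 0.22 with capped counts for mitosis, and from -0.39 to -0.10 with capped counts for replication. Capping by its construction takes more counts from deeper wells, and under it Mki67 in yolk sac negative cells changed from -1.05 to 1.02 and the mitosis sum there to 0.12. For the gates, mitosis (-0.01) stood at 0.14 with wells of at least 1000 genes, 0.077 without haemoglobin and mitochondrial genes, 0.13 with TMM scaling, -0.13 with capped counts, -0.084 without Mki67 and 0.21 without Gm42418 as well. Replication (-0.11) stood at 0.003 with wells of at least 1000 genes. For the tissues, mitosis (0.28) stood at 0.21 with wells of at least 1000 genes, 0.007 without haemoglobin and mitochondrial genes, -0.14 with TMM scaling, 0.41 without Mki67 and -0.043 without Gm42418 as well. Replication (0.54) stood at 0.13 without haemoglobin and mitochondrial genes, 0.13 with TMM scaling, 0.68 with capped counts and 0.15 without Gm42418 as well. Beyond the construction of capping, the cause of these moves was not tested. The median share of wells with 2 counts rose from 62.2% to 85.2% at 2000 counts and 96.1% without thinning for mitosis, and from 34.7% to 64.0% and 81.2% for replication. The mitosis share of member counts stayed higher at E11.5 by a median of 6.03 to 7.75 points under the 5 alternatives run for it. With capped counts the difference ran from 4.93 points in AGM negative to 12.0 in yolk sac negative cells, against 5.16 in the control wells. Of 192 sums by pair, 27 changed sides of 0, of which the mitosis sum in yolk sac negative cells was the one stage comparison. Ung, with 1 to 17 counts per pool, is below what this depth can resolve.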

Other observations

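Markers of other cell types moved between the stages beside the members. Macrophage markers summed to 31.5 CPM in E9.5 AGM positive and 1086 CPM in E11.5 AGM positive cells, and to 553 and 782 CPM in yolk sac positive cells. Visceral endoderm markers summed to 89.0 CPM in E9.5 and 7277 CPM in E11.5 yolk sac positive cells. The positive control wells of the E11.5 chip held 419 CPM of the latter, against 12.9 on the E9.5 chip. The part of these in the stage values was not tested.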
